A study of Mus musculus with 6 samples.

Results

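The small leucine-rich proteoglycans are secreted proteins of the extracellular matrix whose core is built of leucine-rich repeats and mostly carries chondroitin, dermatan or keratan sulfate chains. The 8 genes described here, Dcn, Bgn, Aspn, Lum, Fmod, Prelp, Ogn and Podn, were chosen by name as members of this family, with earlier results of these data known. All 8 were found among the 24077 genes of the single-cell table and among the 30828 genes of the spatial tables.

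These proteins coat collagen fibrils, set their diameter and spacing, and hold growth factors in the matrix. In the uterus the family is made by the stroma of the endometrium, by the smooth muscle of the myometrium and by the cells that line the outer surface, and the matrix around these cells is remodeled by steroid hormones. Decorin (Dcn) and biglycan (Bgn) are close relatives that bind collagen and TGF-beta, and asporin (Aspn) is a further relative with an aspartate-rich end. Lumican (Lum) and fibromodulin (Fmod) share a binding site on collagen. Prelp links basement membranes to the connective tissue beneath them. Osteoglycin (Ogn) belongs to a separate class, and podocan (Podn) to a non-canonical one.

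The mice were female CD-1 mice given corn oil (CO) or diethylstilbestrol (DES, a synthetic estrogen) at 1 mg/kg/day under the skin on neonatal days 1 to 5, and all uteri were taken at 12 months of age. For each treatment 1 library of dissociated cells was made, from 2 pooled mice for CO and from 4 pooled mice for DES. In addition 2 sections per treatment, each of 1 mouse, were profiled on a slide of barcoded spots. The paper states that a pathologist examined the DES tissue for uterine adenocarcinoma. It also states that the chosen blocks were cored to areas of interest. The sections are therefore chosen regions, and their values are not those of the entire uterus. Since DES mice stay in estrus, the CO mice were picked at that stage of the cycle to match them. The spatial sections are named CO A, CO B, DES A and DES B; the study describes a tissue fold in CO B and limits in telling spot clusters apart in DES B.

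The CO library held 32387 cells, of which the authors annotated 12253, and the DES library 16312 cells, of which 9701 were annotated. The median was 10775 unique molecular identifiers (UMIs, each standing for an RNA molecule) per annotated CO cell and 17035 per annotated DES cell. The libraries shared 180 cell barcodes, of which 32 were annotated in both. Each section held 1357 to 1834 spots of 55 µm, with a median of 4116 to 6656 UMIs per spot and 9117099 to 12506177 UMIs in all. The names of the mesothelial and stromal cells were checked against their markers in the CO library. Cells named mesothelial carried Upk3b at 1005 CPM (UMIs of the gene per 1000000 UMIs of the cells) and Dpt at 1.88 CPM, whereas cells named stromal carried Upk3b at 26.8 CPM and Dpt at 265 CPM. Only 1 DES cell was named stromal, so that the DES stroma was measured in the spatial sections alone.

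The 8 genes lie on 5 chromosomes (GRCm38), and 6 of them form 3 pairs of neighbors among the 8. Other genes lying between the members of a pair were not looked for. Dcn (chr10:97479609-97518143, plus strand) is separated from Lum (chr10:97565128-97572703, plus strand) by 46984 bases. Prelp (chr1:133910304-133921414, minus strand) and Fmod (chr1:134037254-134048277, plus strand) are 115839 bases apart, and Aspn (chr13:49544443-49567565, plus strand) and Ogn (chr13:49608046-49624501, plus strand) 40480 bases. Bgn (chrX:73483602-73495933, plus strand) and Podn (chr4:108014791-108096445, minus strand) have no family neighbor among the 8.

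RefSeq promoter windows (GRCm38.p6, 250 bases before to 50 bases after a start site) were held for 6 of the 8 genes, and not for Dcn and Lum. Those of Fmod, Prelp and Ogn are shown because these 3 genes had higher levels in 1 group of DES epithelial cells, described further on. The letters searched on both strands were TATAAA (in 13.6% of 32851 promoters), GGTCA, which is part of the estrogen response element (40.5%), TGANTCA, an AP-1 motif (7.81%), and the CArG box of serum response factor (1.63%). Matches are in capitals, and the sequences run 5′ to 3′ on the gene's own strand, at chr1:134037004-134037303 (plus) for Fmod, chr1:133921352-133921651 (minus) for Prelp and chr13:49607765-49608064 (plus) for Ogn.
Fmod: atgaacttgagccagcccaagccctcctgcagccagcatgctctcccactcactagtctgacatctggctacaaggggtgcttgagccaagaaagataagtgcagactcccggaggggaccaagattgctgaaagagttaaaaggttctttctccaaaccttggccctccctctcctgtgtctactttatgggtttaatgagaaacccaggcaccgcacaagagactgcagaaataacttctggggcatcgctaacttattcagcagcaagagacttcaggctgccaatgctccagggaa
Prelp: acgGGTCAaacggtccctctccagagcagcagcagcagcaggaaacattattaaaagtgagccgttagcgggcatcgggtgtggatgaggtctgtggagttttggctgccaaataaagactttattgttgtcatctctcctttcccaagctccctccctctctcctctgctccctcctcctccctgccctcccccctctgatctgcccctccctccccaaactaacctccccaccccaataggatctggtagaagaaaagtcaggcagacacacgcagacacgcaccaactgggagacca
Ogn: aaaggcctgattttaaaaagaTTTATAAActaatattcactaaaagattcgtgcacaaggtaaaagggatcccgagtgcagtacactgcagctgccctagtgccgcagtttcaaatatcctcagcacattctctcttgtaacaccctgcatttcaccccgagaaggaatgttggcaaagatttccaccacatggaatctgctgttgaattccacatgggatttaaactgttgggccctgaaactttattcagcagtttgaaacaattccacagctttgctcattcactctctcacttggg
Prelp held GGTCA at position -247 from the start site, and Ogn held TATAAA at -229 on the minus strand and at -227 on the plus strand, the 2 matches overlapping. No searched motif was matched in the windows of Fmod and Bgn. The Aspn window held TATAAA at -207 on the plus strand and at -178 on the minus strand, and 1 of the 2 Podn windows held GGTCA at -134 on the minus strand. These matches are descriptions of letters and not sites of binding.

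In the CO library of dissociated cells the family was not led by the cells annotated as stroma. None (0) of the 8 genes had its highest level in stromal cells, either as summed UMIs or under the 3 other ways of scaling or filtering the cells that were tried. Among the cell types of at least 50 cells, Dcn, Bgn, Lum, Fmod and Podn were highest in mesothelial cells, the lining of the outer surface, and Prelp, Ogn and Aspn in myocytes. In the smaller Stmn1-hi group (22 cells) Bgn was at 664 CPM, with an interval (588 to 746) that held the mesothelial level. Mesothelial cells were 56.0% of the annotated CO cells and held between 77.2% (Aspn) and 96.8% (Fmod) of each gene's annotated UMIs. These are shares of the cells captured in 1 library and not of the tissue. In the sections, described further on, Dcn was highest in the stromal cluster of CO A but not in that of CO B. With 1 library per condition no test between cell types or treatments was made, and the 95% intervals below are exact Poisson intervals that cover counting error only.

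Dcn was measured at 17675 CPM (17646 to 17703) in the 6866 CO mesothelial cells, at 8859.5 CPM (8806 to 8914) in the 1326 stromal cells and at 3205 CPM (3100.2 to 3313) in the 85 myocytes. The order of Dcn levels went on through pericytes (2323 CPM) and Ctla2a cells (1999 CPM) down to epithelial cells (216 CPM). As the mean of each cell's own share of UMIs, pericytes (1637 CPM) fell below Ctla2a cells (1879 CPM), so the order of these 2 depended on the scaling. CO myeloid cells (67 cells) had 4283 CPM in summed UMIs, above myocytes, and 2229 CPM as the mean of cells, below the 2737.5 CPM of myocytes, and their 5 mesothelium markers summed to 587 CPM. The same markers summed to 2667 CPM in mesothelial cells, 360.2 CPM in myocytes, 341 CPM in Ctla2a cells, 287 CPM in pericytes, 163 CPM in stromal cells and 49.5 CPM in epithelial cells. The part of RNA from other cells in the Dcn levels was not tested. Bgn, a close relative of Dcn, was spread more evenly. It was measured at 624 CPM in mesothelial cells, 474 CPM in Ctla2a cells (a group of that name in the deposited annotation), 415 CPM in stromal cells and 386 CPM in pericytes, where the intervals of the last 2 overlapped. Aspn had the narrowest pattern of the 3 relatives, with 415 CPM (378 to 455) in myocytes, 142 CPM (105 to 187) in pericytes, 34.7 CPM in mesothelial cells and 23.3 CPM in stromal cells.

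Lum and Fmod, which bind the same site on collagen, were both highest in mesothelial cells but differed in stroma. Lum was measured at 3330.2 CPM in mesothelial cells, and at 1065 CPM in stromal cells and 1046 CPM in myocytes, whose intervals overlapped. Fmod was at 74.8 CPM (73.0 to 76.7) in mesothelial cells and at 2.56 CPM (1.72 to 3.65) in stromal cells. The Fmod intervals of all neighbors below mesothelial cells overlapped, from pericytes (14.2 CPM) down to epithelial cells (1.35 CPM). Podn was also highest in mesothelial cells, with 57.4 CPM against 4.09 CPM in stromal cells. Ogn had close levels in 3 cell types: 1227 CPM (1163 to 1295) in myocytes, 1158 CPM (1151 to 1165) in mesothelial cells and 1071 CPM (1052 to 1089.5) in stromal cells, the first pair overlapping. The 4 highest Prelp levels could not be told apart, with 34.7 CPM in myocytes, 30.4 CPM in endothelial cells and 28.4 CPM in both mesothelial cells and pericytes; stromal cells had 10.7 CPM.

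**Figure D1:**
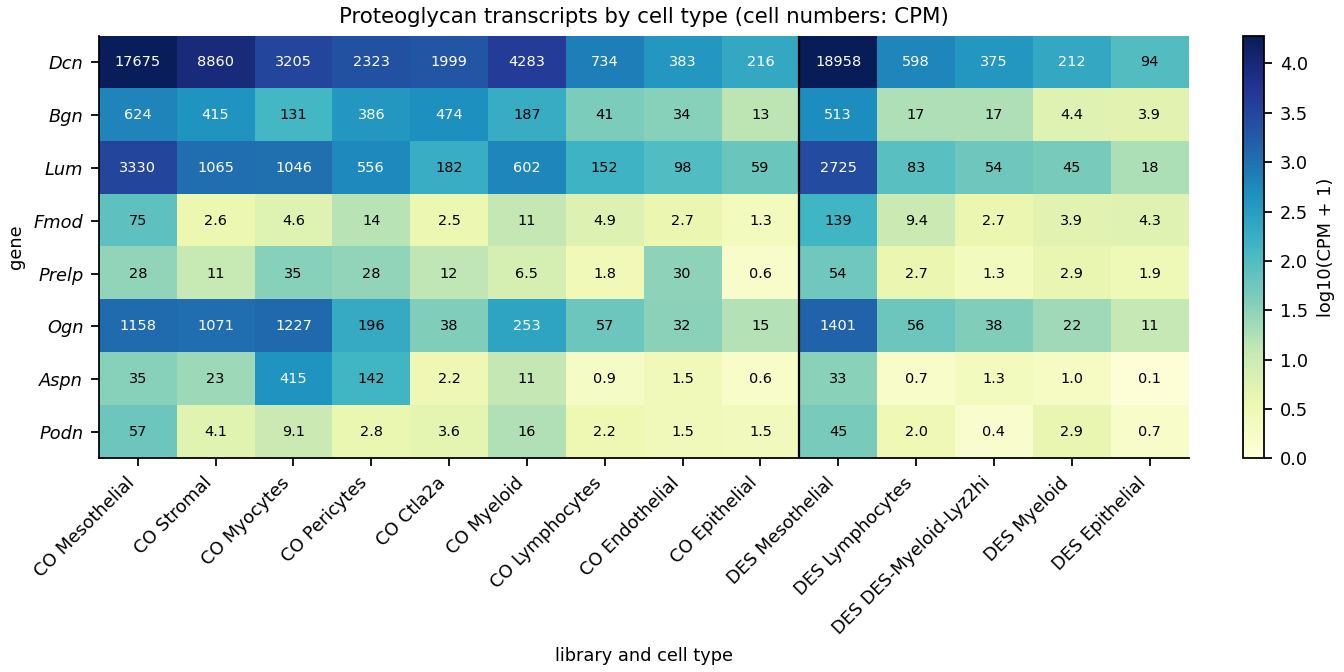
Level of each gene (rows) in each annotated cell type of at least 50 cells (columns), CO library left of the line and DES library right of it, as CPM in the cells and log10(CPM + 1) in color. The mesothelial columns of both libraries are dark for Dcn, Lum and Ogn, and the 415 CPM of Aspn stand in CO myocytes.

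Among single CO stromal cells the family split into genes found in most cells and genes found in few. After thinning each of 1303 cells to 3000 UMIs, a UMI was found in 100% of cells for Dcn, 84.0% for Ogn, 80.0% for Lum and 63.3% for Bgn. CO lymphocytes, which should lack these genes, gave 69.4% for Dcn, 12.6% for Ogn, 31.9% for Lum and 10.6% for Bgn over 310 cells at the same thinned depth (median 4033 UMIs before thinning, against 8726.5 in stromal cells). The other 4 genes were found in 4.45% (Aspn, exact Clopper-Pearson 95% interval 3.40 to 5.72), 2.15% (Prelp), 1.23% (Fmod) and 1.07% (Podn) of cells. The lymphocytes gave 0.645% for both Aspn and Prelp, 0.968% for Fmod and 1.29% for Podn. The Fmod and Podn shares of stromal cells therefore lay within the intervals of the lymphocyte shares, which reached 2.80% for Fmod and 3.27% for Podn. They could not be told apart from the lymphocyte shares, which rest on 3 cells for Fmod and 4 for Podn. The part of RNA from other cells in these shares was not tested. The Prelp share also lay within the lymphocyte interval, which reached 2.31% on 2 cells, but the Prelp level of stromal cells, 10.7 CPM (8.87 to 12.7), was above the 1.78 CPM (0.485 to 4.56) of lymphocytes without overlap. Without thinning, the stromal shares were 88.4% for Bgn, 8.30% for Aspn, 7.32% for Prelp, 2.19% for Fmod and 3.39% for Podn. Most thinned stromal cells carried UMIs of 3 (40.1%) or 4 (41.7%) of the 8 genes, and no cell carried 7 or 8. The single DES stromal cell held 78 Dcn, 31 Lum, 13 Bgn and 6 Ogn UMIs among 6958, and 0 of the other 4 genes, which this depth could not show.

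Among DES cell types of at least 50 cells the mesothelial cells (3837 cells) led for all 8 genes, with levels 14.8-fold (Fmod) to 32.7-fold (Lum) above the next type. No DES group of that size was named for myocytes, pericytes, Ctla2a, stromal or endothelial cells. Only lymphocytes, myeloid cells and epithelial cells were therefore compared with them. In the 5 DES endothelial cells Prelp was at 267 CPM (146 to 449), above the mesothelial level. Between the libraries the mesothelial levels went both ways. Fmod was measured at 139 CPM in DES against 74.8 CPM in CO mesothelial cells, a ratio of 1.86 (1.80 to 1.92), and Prelp at 53.5 against 28.4 CPM, a ratio of 1.89 (1.79 to 1.99). Ogn had a ratio of 1.21 and Dcn of 1.07, Aspn of 0.946 with an interval (0.894 to 1.00) that reached 1, and Lum (0.818), Bgn (0.821) and Podn (0.788) were lower in DES. These ratios compare 2 libraries and not the treatments, and markers of other cells also differed between them: the stroma markers summed to 121 CPM in CO and 72.7 CPM in DES mesothelial cells, the muscle markers to 675 and 495 CPM, the epithelium markers to 971 and 469 CPM, and the adipocyte markers, of which 3 of 5 were at 0 in both libraries, to 105 and 462 CPM. Their part in the ratios was not tested. Fmod was also found in 32.9% of thinned DES and 18.2% of thinned CO mesothelial cells, and Prelp in 13.96% and 7.62%.

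Epithelial cells of the DES library (5255 cells) had the same 2 genes above those of the CO library (2583 cells): Fmod at 4.27 against 1.35 CPM and Prelp at 1.86 against 0.584 CPM. These are ratios of 3.17 and 3.18, which became 7.13 and 5.78 as the mean of each cell's own share. The other 6 genes had DES to CO ratios of 0.233 (Aspn) to 0.695 (Ogn), and that of Ogn was 0.988 as the mean of cells. The mesothelium markers in the same cells summed to 24.6 CPM in DES and 49.5 CPM in CO, and their part in the lower ratios was not tested. In myeloid cells the ratio of Dcn was 0.0496 in summed UMIs and 0.0955 as the mean of cells, beside mesothelium marker sums of 48.5 CPM in DES and 587 CPM in CO.

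The Fmod of DES epithelium was concentrated in the basal cells. The authors' text names clusters 8 and 11 of their integrated epithelial clustering as basal cells, a cell type of stratified epithelium, and these clusters held 608 DES epithelial cells (11.6%) and 0 of 2583 CO epithelial cells. Krt14, the keratin of basal cells, was at 3554 CPM there and at 9.17 CPM in the other DES epithelial cells, and Trp63, their master regulator, at 240 and 0.877 CPM. The clusters were formed on these same counts, so the contrasts that follow are descriptions with counting intervals and no test. Fmod was measured at 48.0 CPM (42.9 to 53.5) in cluster 8 and 58.4 CPM (51.2 to 66.3) in cluster 11, whereas the other 10 clusters of at least 50 DES cells lay between 0.425 and 2.23 CPM. Over both clusters Fmod was 44.7-fold (37.9 to 53.0) above the other epithelial cells, and these cells held 74.5% of the epithelial Fmod UMIs. The basal Fmod level was 37.3% of that in DES mesothelial cells.

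Prelp and Ogn showed the same 2 clusters at the top. Prelp was at 9.78 CPM in cluster 8 and 12.6 CPM in cluster 11, against at most 1.89 CPM in the other 10 clusters, an 8.54-fold (6.75 to 10.8) ratio. A cluster of 43 cells, below the size compared here, had Prelp at 6.12 CPM. Ogn was at 73.1 and 39.3 CPM against at most 13.8 CPM, an 8.04-fold (7.30 to 8.85) ratio. The ratios were 1.57-fold for Dcn, 1.66-fold for Lum, 1.38-fold for Bgn and 1.56-fold (0.757 to 2.91) for Podn. Markers of mesothelium did not move alike in the basal cells: Upk3b was at 10.8 CPM there and 12.0 CPM in the other epithelial cells, and Lrrn4 and Msln were 1.67- and 1.59-fold higher. After thinning to 3000 UMIs, Fmod was found in 13.4% (10.8 to 16.4) of 605 basal cells and 0.413% (0.249 to 0.645) of 4596 other DES epithelial cells, Ogn in 14.5% and 2.81%, Prelp in 3.14% and 0.566%, and Upk3b in 2.48% and 4.22%. Without thinning the Fmod shares were 35.4% and 3.83%.

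**Figure D2:**
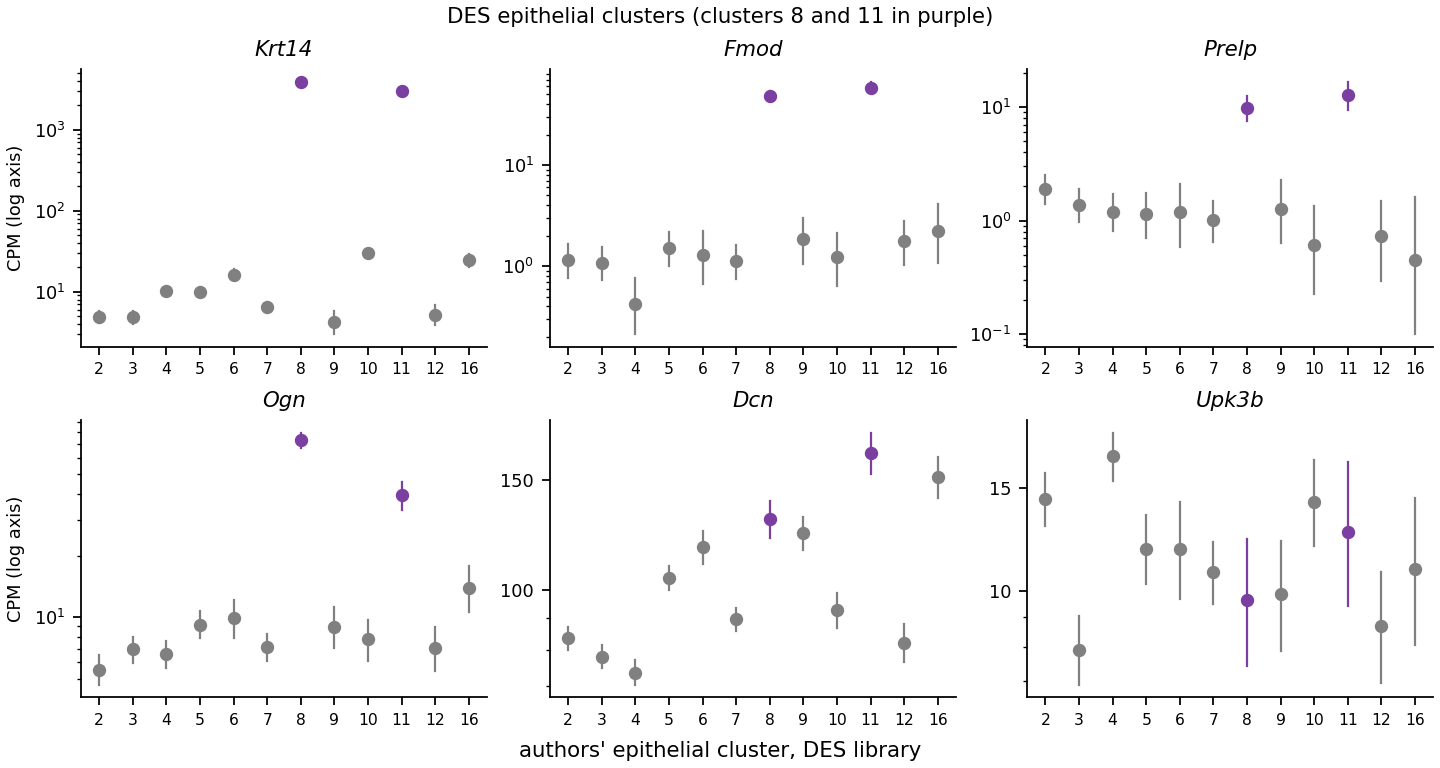
Levels (CPM, log axes that differ between panels, with exact Poisson 95% intervals) in the 12 epithelial clusters of the DES library with at least 50 cells, basal clusters 8 and 11 in purple. Krt14, Fmod, Prelp and Ogn are highest in clusters 8 and 11, with Fmod at 48.0 and 58.4 CPM, and Upk3b, a mesothelial gene, is not; the mesothelial genes Lrrn4 and Msln, not drawn, were 1.67- and 1.59-fold higher in the 2 clusters together than in the other epithelial cells.

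Across whole sections, Fmod was higher and Dcn and Lum were lower in the DES sections than in the CO sections. Dcn was measured at 1134 CPM in section CO A and 1462 CPM in CO B, against 489 CPM in section DES A and 350.1 CPM in section DES B. Lum was at 463 and 478 CPM in the CO sections and at 219 and 206 CPM in the DES sections. Fmod was at 2.24 and 3.90 CPM in the CO sections and at 60.3 and 42.5 CPM in the DES sections. For all 3 genes the CO and DES sections did not overlap. Here and below, such separation of 2 and 2 sections describes values only, and the share of all genes with it was not counted. The edgeR quasi-likelihood test of summed UMIs, adjusted by Benjamini-Hochberg over 14098 genes, gave DES minus CO log2 differences of 3.86 (SE 0.34, adjusted p = 0.0206) for Fmod, -1.84 (SE 0.25, adjusted p = 0.0297) for Dcn and -1.35 (SE 0.16, adjusted p = 0.0253) for Lum. So 1 of 8 genes was called higher and 2 of 8 were called lower, where 2.67% of all genes tested were called higher and 2.63% lower, and the median log2 difference was -0.79 over the 8 genes and -0.0052 over all genes tested. In a section, fewer cells of a type and less RNA per cell cannot be told apart.

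The other 5 genes did not pass in whole sections by edgeR, and DESeq2 called Aspn (adjusted p = 0.00781) and Ogn (0.0260), both lower. Aspn was at 58.0 and 44.05 CPM in the CO sections and at 30.3 and 24.9 CPM in the DES sections (log2 difference -1.10, SE 0.22, adjusted p = 0.0621). Ogn was at 330.5 and 163 CPM against 126 and 127 CPM (log2 difference -1.18, SE 0.38, adjusted p = 0.145), the CO sections lying apart from each other. Bgn (227 and 396 against 325 and 213 CPM), Prelp (37.9 and 105 against 96.9 and 73.5 CPM) and Podn (4.32 and 7.52 against 4.94 and 4.76 CPM) overlapped between the groups. The 8 genes together came to 2257 and 2659 CPM in the CO sections and 1352 and 1042 CPM in the DES sections, and Dcn made 50.2% and 54.98% of these UMIs in CO but 36.2% and 33.6% in DES. Muscle markers summed to 14758 and 16169 CPM in the CO sections and 3562 and 4036 CPM in the DES sections, and stroma markers to 1318 and 991 against 651 and 412 CPM; their part in the lower levels was not tested. In edgeR 0 of the 8 genes were called when either DES section was left out (4 had an unadjusted p under 0.05 each time), where 14 of all 14657 genes were called without DES A and 3 of 14708 without DES B. Fmod then had log2 differences of 3.61 (adjusted p = 0.0578) and 4.05 (0.0604), Dcn -2.07 (0.141) and -1.66 (0.201), and Lum -1.38 (0.239) and -1.36 (0.242). Without CO A 5 of the 8 genes and 2819 of all 14538 were called, and without CO B 6 of the 8 and 2336 of all 14505, adding Aspn (adjusted p = 0.0263 and 0.0108) and Ogn (0.0489 and 0.00555), both lower, and without CO B also Prelp, which was then higher (0.93, adjusted p = 0.0401).

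**Figure D3:**
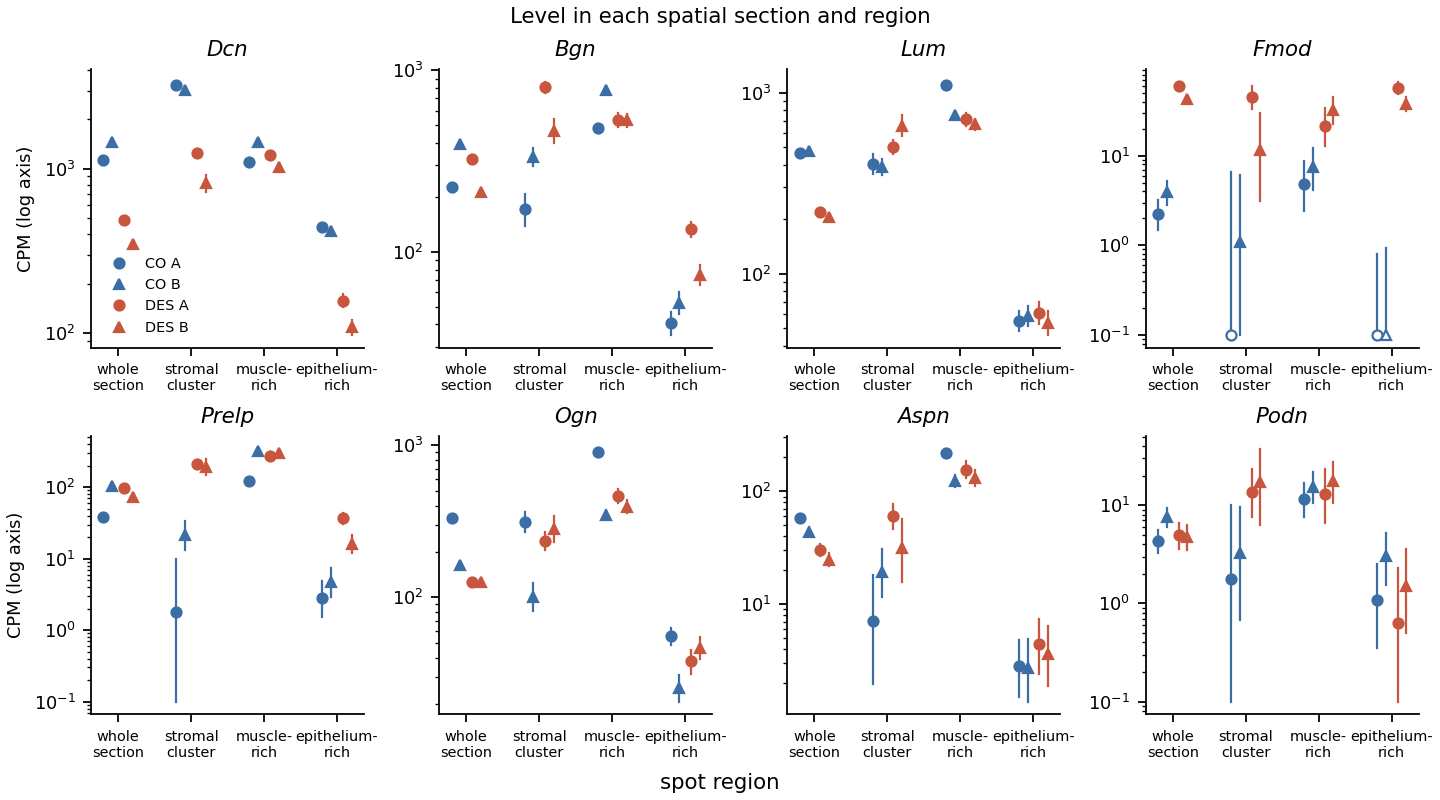
Level of each gene (CPM, log axes that differ between panels) in the whole section, the stromal cluster, and the 20% of spots richest in muscle or epithelium markers, for CO A and CO B (blue) and DES A and DES B (red), with exact Poisson 95% intervals. Open symbols at the floor of the axis mark 0 UMIs, as for Fmod in the epithelium-rich spots of both CO sections, where the DES sections have 57.4 and 37.4 CPM.

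Within the stromal spot cluster that the study names in each section, the change from CO to DES took another form. Prelp was measured at 1.79 and 21.7 CPM in CO stroma (1 and 20 UMIs) and at 211 and 193 CPM in DES stroma (214 and 67 UMIs), with no overlap. Its log2 difference was 3.87 (SE 0.62, adjusted p = 0.0337), and it was the 1 gene called, as higher, of the 7 tested. Among all 8914 genes tested, 0.796% were called higher and 0.673% lower, and the median log2 difference was 0.0018 against 1.26 over the 7 genes. Leaving out DES A gave 3.90 (adjusted p = 0.0749) for Prelp, where 40 of all 8695 genes were called, and leaving out DES B 3.86 (0.0554), where 86 of all 10361 were. DESeq2 gave an adjusted p of 0.0969, and without CO B the difference was 6.64. Dcn was at 3230.2 and 3038 CPM in CO and at 1249 and 817 CPM in DES stroma, with no overlap but an adjusted p of 0.0543 (log2 difference -1.66, SE 0.33). DESeq2 called it, with adjusted p = 0.000408.

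Bgn, Aspn, Podn and Lum had higher values in the stromal cluster of both DES sections than in either CO section and did not pass in the main fit. Without a filter on low counts, 4 of the 8 genes were called higher and 1 lower, where 714 of all 16195 genes were called. Bgn was at 172 and 335 CPM in CO and 806 and 465 CPM in DES stroma (log2 difference 1.26, SE 0.40, adjusted p = 0.205). Aspn was at 7.16 and 19.5 against 60.1 and 31.8 CPM (1.68, SE 0.52, adjusted p = 0.185), and Podn at 1.79 and 3.25 against 13.8 and 17.3 CPM (2.35, SE 0.75, adjusted p = 0.199). Lum was at 405 and 390.2 against 503 and 658 CPM. Ogn was at 313 and 101 against 235 and 283 CPM, which overlapped. Fmod had 0 and 1 UMIs in CO stroma and 46 and 4 UMIs in DES stroma and was below the count filter; over the summed UMIs the ratio was 54.4 (counting interval 9.32 to 2190.2).

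Other cells moved with these stromal values. The muscle markers summed to 963 and 762 CPM in the CO clusters and to 3170.2 and 9544 CPM in the DES clusters, and the plasma cell markers to 37.6 and 2069 against 7938 and 39747 CPM. Of the DES B stromal cluster, 53.8% of spots were also among the 20% richest in muscle markers, against 5.21% in DES A and none in CO. Without those spots Prelp was at 211 and 125 CPM in DES A and DES B and was still called (log2 difference 3.61, SE 0.65, adjusted p = 0.0351). When stroma was taken instead as the 20% of spots with the highest stroma marker score, Prelp was not called (0.65, SE 0.56, adjusted p = 0.651), whereas Dcn (-1.63, SE 0.28, adjusted p = 0.0412) and Fmod (3.21, SE 0.46, adjusted p = 0.0270) were. In those spots the log2 difference of Bgn was 0.24 (adjusted p = 0.829) and that of Podn 0.96 (0.450). Those of Aspn (-0.41, adjusted p = 0.680), Lum (-0.88, 0.161) and Ogn (-0.84, 0.245) had the opposite sign to the stromal cluster, where they were 1.68, 0.51 and 0.30 with no call.

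The levels in the stromal cluster were also set against those in all other spots of the same section. Dcn favored the stromal cluster in all 4 sections, being 3.12-fold (CO A), 2.305-fold (CO B), 3.17-fold (DES A) and 2.45-fold (DES B) higher there than in all other spots. Bgn was 0.747- and 0.835-fold of other spots in CO stroma but 3.04- and 2.28-fold in DES stroma. Lum was 0.868- and 0.803-fold in CO and 2.74- and 3.48-fold in DES, and Ogn 0.946- and 0.598-fold in CO and 2.10- and 2.33-fold in DES. For all 3 the CO sections fell below 1 and the DES sections above it. Aspn was 0.119- and 0.422-fold in CO and 2.26- and 1.29-fold in DES, and Prelp was 0.192-fold in CO B and 2.55- and 2.80-fold in DES. In DES stroma Podn was 3.603- and 4.03-fold, whereas Fmod was 0.728- and 0.265-fold of other spots; in CO both had 3 or fewer UMIs in the stromal cluster, and no ratio is given.

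The test of the difference itself, with section as a block, called 6 of the 8 genes higher, where 2.58% of 13542 genes were called higher and 0.783% lower. The log2 differences of the ratio, DES minus CO, were 4.196 (SE 0.38) for Prelp, 3.32 (SE 0.86) for Podn, 2.88 (SE 0.46) for Aspn, 2.02 (SE 0.25) for Lum, 1.88 (SE 0.26) for Bgn and 1.67 (SE 0.28) for Ogn. The adjusted p was 0.0214 for Podn and at most 0.000154 for the other 5. Few UMIs of 2 of these genes lay in the stromal cluster. Podn had 1 and 3 in CO and 14 and 6 in DES, and Aspn 4 and 18 in CO and 61 and 11 in DES. Dcn (0.20, SE 0.24, adjusted p = 0.861) and Fmod (1.66, SE 1.26, adjusted p = 0.717) did not pass. The median was 1.95 over the 8 genes and -0.017 over all genes tested. Whole sections, which are mostly other spots, had lower muscle markers in DES than in CO. The part of muscle in these ratios was not tested. Podn was not called by DESeq2 (adjusted p = 0.245) or without CO B (0.276), DES A (0.0724) or DES B (0.0504), and without CO B the differences of Prelp and Aspn were 6.11 and 4.21. The spot clusters were drawn by the authors in each section on the same counts, and with the 20% of spots richest in stroma markers in their place only Bgn was called (0.89, SE 0.13, adjusted p = 0.0132) and the other 7 were not.

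**Figure D4:**
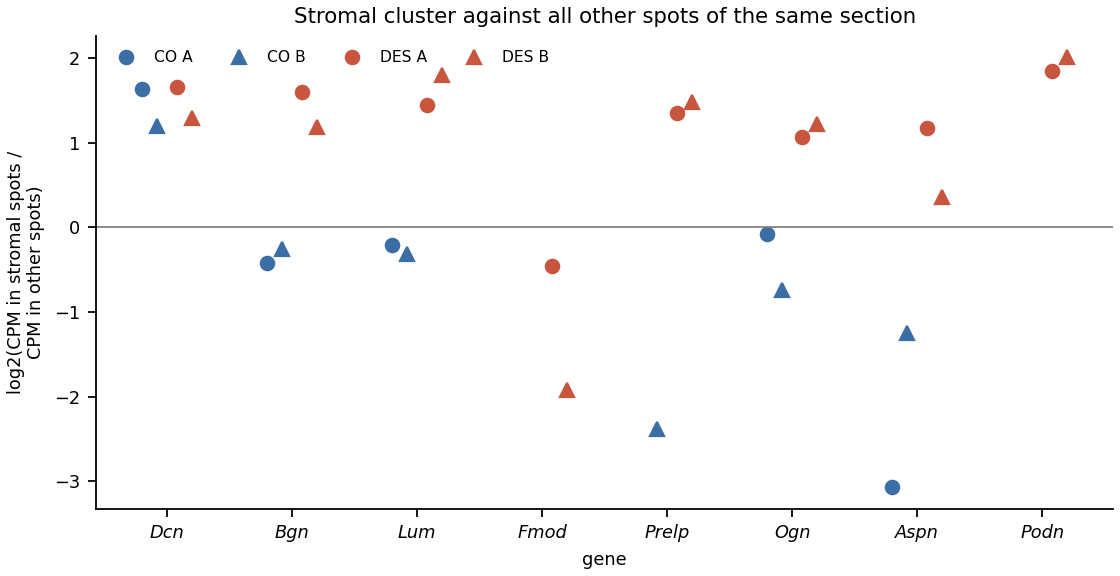
The log2 ratio of the level in the stromal cluster to that in all other spots of the same section, for CO A and CO B (blue) and DES A and DES B (red). Dcn is above 0 in all 4 sections, Bgn, Lum, Ogn and Aspn are below 0 in CO and above 0 in DES, and sections with 3 or fewer UMIs in either set of spots are not drawn.

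In muscle-rich spots, the 20% of each section with the highest muscle marker score, the family levels of CO and DES were closer. Muscle markers in these spots summed to 50885 and 52556 CPM in CO and 27176 and 23512 CPM in DES. Epithelium markers summed to 125 and 113 CPM in CO and 349 and 509 CPM in DES. Plasma cell markers summed to 449 and 85.4 CPM in CO and 10732 and 22210 CPM in DES. The part of these cells in the values was not tested. Fmod was measured at 4.89 and 7.45 CPM in CO and 21.4 and 32.3 CPM in DES (11, 15, 18 and 35 UMIs), and the groups did not overlap. It was the 1 gene of 8 called, as higher, with a log2 difference of 1.92 (SE 0.43, adjusted p = 0.0474), where 2.28% of 10395 genes were called higher and 1.27% lower. The call was not made by DESeq2 (adjusted p = 0.203), in the 10% of spots richest in muscle (0.232), without DES A (2.20, adjusted p = 0.153, with 62 of all 11451 genes called) or without DES B (1.55, adjusted p = 0.628, with 41 of all 11391 called). The median log2 difference was -0.44 over the 8 genes and -0.0057 over all genes tested. Aspn, whose highest single-cell level was in myocytes, was at 219 and 125 CPM in the CO and 156 and 132 CPM in the DES muscle-rich spots, which overlapped. Prelp was at 120.4 and 321 CPM in CO and 276 and 306 CPM in DES, and Lum at 1101 and 755 CPM in CO and 714 and 668 CPM in DES. Without CO B, 5 of the 8 genes and 1820 of all 10394 were called, among the 5 Prelp (1.05, SE 0.22, adjusted p = 5.72e-05) and Ogn (-1.31, SE 0.20, adjusted p = 8.53e-09), and without CO A 3 of the 8 and 1495 of all 10414, with Dcn (-0.62, adjusted p = 0.0138) and Bgn (-0.79, adjusted p = 0.00200) beside Fmod.

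The muscle-rich spots also showed where each gene lay within a section. Aspn was 77.0- and 45.2-fold higher in muscle-rich than in epithelium-rich spots of CO A and CO B and 35.3- and 36.1-fold higher in DES A and DES B. Prelp was 42.4- and 67.4-fold higher in the CO sections and 7.54- and 19.0-fold higher in the DES sections. Fmod went the other way in DES, at 0.373- and 0.861-fold of its epithelium-rich level. These ratios describe the spots and carry no test.

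In epithelium-rich spots, the 20% of each section with the highest epithelium marker score, Fmod was found only in the DES sections. It had 0 UMIs in both CO sections, among 4578277 and 3991893 UMIs, and 182 and 123 UMIs in DES A and DES B, which gives 57.4 and 37.4 CPM. Against the limit of 3 counts over the CO group, the DES level was at least 136-fold higher; the fitted log2 difference of such a gene is no bound (adjusted p = 0.0178). Dcn was at 443 and 421 CPM in CO and 158 and 108 CPM in DES (log2 difference -1.98, SE 0.24, adjusted p = 0.0258). These were the 2 genes called of 7 tested, 1 in each direction, where 2.74% of 11946 genes were called higher and 1.57% lower. The median log2 difference was 0.24 over the 7 genes, with Fmod at its fitted value or at its bound, and -0.011 over all genes tested. Stroma markers in these spots summed to 553 and 326 CPM in CO and 208 and 145 CPM in DES, and their part in the Dcn value was not tested. When DES A or DES B was left out, edgeR called 0 of all 12547 and 0 of all 12719 genes (1312 and 1505 had an unadjusted p under 0.05), and Dcn then had log2 differences of -2.24 (adjusted p = 0.147) and -1.77 (0.186) and Fmod adjusted p = 0.0683 and 0.0885.

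Prelp had higher values in the DES epithelium-rich spots without passing, at 2.84 and 4.76 CPM in CO and 36.6 and 16.1 CPM in DES (log2 difference 2.51, SE 0.52, adjusted p = 0.0616), and was called by DESeq2 (adjusted p = 0.00296). Bgn was at 40.6 and 52.4 CPM in CO and 134 and 74.6 CPM in DES (0.88, SE 0.32, adjusted p = 0.170). Lum (55.04 and 58.6 against 60.9 and 53.6 CPM) and Ogn (55.3 and 25.3 against 37.9 and 46.6 CPM) overlapped between the groups. A UMI of Fmod was found in 1.54% and 2.13% of all CO A and CO B spots and in 20.4% and 18.0% of all DES A and DES B spots.

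Within the DES sections the spots richest in Krt14 had less Fmod than the rest. In DES A the Fmod level was 22.2 CPM in the 20% of spots with the most Krt14 and 73.2 CPM in the others, and in DES B it was 18.7 and 48.8 CPM. Over spots, the correlation of Fmod with Krt14 was 0.015 in DES A and -0.0070 in DES B, as descriptions over 1575 and 1357 spots that share a section and vary in depth. By spot cluster, Fmod was highest in DES A in cluster 2 (133 CPM, 286 spots), an epithelial cluster with Krt14 at 1442 CPM, whereas DES A cluster 1 had Krt14 at 7030.2 CPM and Fmod at 31.7 CPM. In DES B it was highest in cluster 9 (134 CPM, 13 UMIs in 47 spots), in which the mesothelial gene Upk3b was also at 134 CPM. The epithelium-rich cluster 2 came next (56.7 CPM, Krt14 at 839 CPM), close to cluster 1 (53.8 CPM, Krt14 at 3054 CPM). In DES B cluster 7, with Krt14 at 3762 CPM, Fmod was at 6.07 CPM. In the CO sections the clusters highest in Fmod were CO A cluster 6 (24.997 CPM) and CO B cluster 3 (17.0 CPM), both with muscle scores above the section mean. These 2 clusters also had the highest Upk3b among clusters of at least 20 spots, at 28.1 and 18.2 CPM. Muscle scores were higher in CO A cluster 2 and CO B cluster 5, where Fmod was at 4.81 and 10.0 CPM. The intervals of CO B clusters 3 and 5 overlapped.

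**Figure D5:**
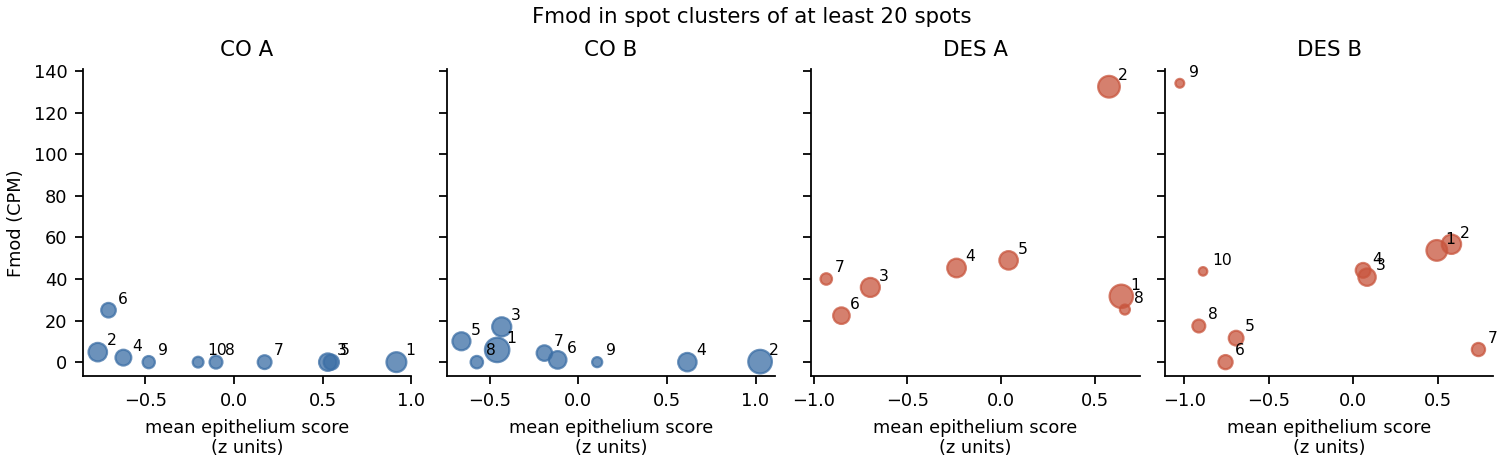
Fmod level (CPM) of each spot cluster of at least 20 spots against the mean epithelium marker score of its spots (z units), by section; numbers name the clusters and point area grows with the number of spots. CO clusters with scores above 0 lie at or near 0 CPM, whereas DES A cluster 2 (133 CPM) and DES B clusters 1 and 2 have positive scores, and DES B cluster 9 (134 CPM) has a negative one.

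Among the spot clusters of each section, Lum was highest in CO A cluster 6 (1873 CPM), CO B cluster 3 (1808 CPM), DES A cluster 7 (1046 CPM) and DES B cluster 9 (2457 CPM), and in each section its interval did not overlap that of the next cluster. Dcn was highest in the stromal cluster in CO A (3230.2 CPM). In CO B the stromal cluster stood below clusters 7 (3598 CPM) and 3 (3543 CPM), whose intervals overlapped, and in DES A the vessel-rich cluster 7 (1716 CPM) was above the stromal cluster. In DES B the stromal cluster (817 CPM) had rank 4, below cluster 9 (3706 CPM), cluster 10 (1322 CPM) and another. DES B cluster 9 had a mean stroma score of 0.644, against 0.232 in the stromal cluster. CO B cluster 3 had 0.440, against 0.0930 in the stromal cluster. Aspn was highest in muscle-rich clusters of all 4 sections, from 185 CPM in DES A cluster 6 to 266 CPM in CO A cluster 2. In the DES sections its interval overlapped that of the next cluster, which was cluster 7 (160 CPM) in DES A. In DES B the next was cluster 6 (107 CPM), with a muscle score of -0.239. Podn, with 45 to 83 UMIs per section, was at 92.9 CPM (42.5 to 176) in DES B cluster 9 and at most 22.8 CPM in the highest cluster of the other sections.

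Genes that make, modify or bind the family were counted from 5 fixed lists, with values as DES minus CO log2 differences of the edgeR test. Of 6 tested other leucine-rich relatives in whole sections, Chad (chondroadherin) was called higher (5.45), with 41 and 17 UMIs in the CO and 1021 and 1333 UMIs in the DES sections, and Optc (opticin) lower (-2.54). Of all genes, 2.67% were called higher and 2.63% lower there. Chad was also called higher in the stromal cluster (5.88, on 1 and 0 UMIs in CO), in muscle-rich spots, where CO had 0 UMIs in both sections and DES 17 and 33, and in epithelium-rich spots (4.95). In these comparisons 2, 3 and 3 relatives were tested, and 0.796%, 2.28% and 2.74% of all genes were called higher. Optc was called lower in muscle-rich spots (-1.48). Its ratio of stromal to other spots was higher in DES (6.53), on 0 and 1 UMIs in CO stroma and 7 and 6 in DES stroma.

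Of 21 collagens and fiber partners, which are what the family binds, 4 were called lower in whole sections and 0 higher (14 had an unadjusted p under 0.05 and DESeq2 called 12, all lower), with a median of -1.08, where 2.63% of all genes were called lower. Beside this and the lists below, 3438 of all 14098 genes had an unadjusted p under 0.05 in whole sections. There DESeq2 called 805 of 14971 genes higher and 951 lower. Col3a1, a fibrillar collagen, was lower (-1.69), as was Fn1, fibronectin (-1.46). In muscle-rich spots 8 of the 21 were called lower, against 1.27% of all genes, among them Col5a2 (-1.71) and Col3a1 (-1.58). In epithelium-rich spots 3 were called lower, against 1.57% of all genes, among them Mfap5 (-2.06) and Fbln1 (-1.63). In the stromal cluster edgeR called 0 of the 21, where 5 had an unadjusted p under 0.05 and DESeq2 called 0. The ratio of stromal to other spots was higher in DES for 9 of the 21, against 2.58% of all genes, with a median of 0.78 and with Col12a1 (1.90) and Col6a3 (1.66) as the 2 largest. Without DES A or without DES B, 0 of the 21 were called in whole sections, muscle-rich or epithelium-rich spots, whereas 8 to 11 were called for the ratio when any 1 section was left out.

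Of 23 tested genes of glycosaminoglycan synthesis, which build the sugar chains, 3 were called higher in whole sections, against 2.67% of all genes, and 0 lower (6 had an unadjusted p under 0.05, and DESeq2 called 3 higher and 2 lower). Chst5, a sulfotransferase, had 0 UMIs in both CO sections and 43 and 108 UMIs in the DES sections, and Chst15, another sulfotransferase, was higher by 1.74. In epithelium-rich spots Fam20b, the xylose kinase that starts chain growth, was called higher (1.18), and the ratio of stromal to other spots was higher in DES for Chpf, a chondroitin polymerizing factor (1.70).

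Of the receptors and bound ligands, edgeR called 0 of 16 in whole sections (7 had an unadjusted p under 0.05 and DESeq2 called 2 higher), 0 of 15 in the stromal cluster (2 and 0) and 0 of 15 in muscle-rich spots (2, and 1 lower by DESeq2). In epithelium-rich spots 2 of 15 were called higher, against 2.74% of all genes, Tgfb1 (2.97) and Tgfb2 (2.80), growth factors of the family that decorin and biglycan bind. Of 11 tested proteases that process or cut matrix proteins, 3 were called lower in whole sections, against 2.63% of all genes, among them Gzmb, granzyme B (-3.62), and Adamts1 (-2.15). In the stromal cluster Gzmb had 14 and 35 UMIs in CO and 0 in both DES sections. The ratio of stromal to other spots was higher in DES for Mmp3 (4.48, on 0 and 3 UMIs in CO stroma) and for Pcolce, an enhancer of procollagen processing (1.25), and in epithelium-rich spots Adamts9 was lower (-2.10). As with the collagens, 0 genes of the other 4 lists were called in whole sections or epithelium-rich spots without DES A or without DES B, and 0 proteases for the ratio without CO B. Neither Chad nor Gzmb was called in the stromal cluster without DES A, nor Chad in muscle-rich spots without DES B.

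The genes with the pattern most like a member were named by a correlation of log2(CPM + 1), given as a description. Over 14 groups of cell type by library, which share 2 libraries and differ in depth, Dcn went with Igfbp6 (Pearson r = 0.994), Bgn with the collagen gene Col3a1 (0.979), Lum with Gas6 (0.983), Fmod with Vwc2 (0.956), Prelp with the laminin gene Lama4 (0.946), Ogn with Lgr6 (0.951), Aspn with the smooth muscle gene Tagln (0.970) and Podn with Cybrd1 (0.966). The second in rank were Aebp1 (0.989), Rcn3 (0.977), Igfbp6 (0.981), Gpc3 (0.9504), Rnf187 (0.943), Fgf2 (0.944), Tpm2 (0.967) and Rab6b (0.964), in the same order of members. Over the 40 spot clusters, centered within each section, Dcn went with the stromal matrix gene Dpt (0.971) and Serping1 (0.966), Bgn with Chpf (0.970) and Ltbp4 (0.968), Lum with Cd248 (0.955) and Col15a1 (0.953), and Ogn with Selm (0.969) and Igfbp6 (0.958). Fmod went with the mesothelial gene Upk3b (0.796) and Spi1 (0.731), Prelp with the muscle genes Csrp1 (0.946) and Tagln (0.944), Aspn with Prune2 (0.915) and Wasf1 (0.908), and Podn with Pcsk1n (0.771) and Hspb6 (0.747). Within the family, Dcn and Lum were each other's closest member over cell types (0.978), and Lum and Ogn over spot clusters (0.928).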

How the data were processed

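Counts as deposited were used: UMI counts per gene and cell made by the authors with Cell Ranger 3.0.1 (mm10), with a deposited annotation of cell types and clusters, and UMI counts per gene and spot made with Space Ranger 1.2.2. UMIs were summed per cell type and library, or per section and set of spots. The stromal clusters are those named by the study (CO A 8, CO B 6, DES A 4, DES B 5). Muscle-rich and epithelium-rich spots were the 20% with the highest score of that compartment's markers minus the mean score of the other compartments, on log values of counts scaled to 10000 per spot. Single-cell levels have exact Poisson 95% intervals and shares exact Clopper-Pearson 95% intervals, which cover counting error only; cells were thinned to 3000 UMIs for shares, and a floor of 3 counts was used for a group at 0. Doublets had been removed by the authors before annotation, and no caller was run here.

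Sections were compared with the quasi-likelihood test of edgeR 4.0.16 (R 4.3.3; TMM scaling, filterByExpr, Benjamini-Hochberg adjustment over all genes tested, threshold 0.05), without covariates, and for the ratio of stromal to other spots with section as a block. SEs are the log2 difference divided by the square root of the F statistic. The sections came from separate mice. The test was checked on simulated counts. Alternatives were DESeq2 1.42.0, its size factors in edgeR, no filter on low counts, other sets of spots, leaving out each section, other scalings of single-cell levels and thinning to 5000 UMIs. A repeat of the stromal comparison without muscle-rich spots was added after the data were seen, as was the description by epithelial cluster and by Krt14.

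The genes named are the 8 members in each comparison, the 2 genes most like each member by Pearson correlation of log2(CPM + 1), and of each of 5 fixed lists at most the 2 called genes with the largest change per comparison. Trp63 and the marker genes were named for identity, and Krt14 for identity and for ranking and correlating spots. The members and lists were chosen with earlier results of these data known.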

Additional observations from a re-analysis of the deposited data

Results flagged for a closer look

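For 6 genes the relation of stromal to other spots differed between DES and CO by the edgeR test of that difference. The DES minus CO difference of the log2 ratio was 4.196 for Prelp, 3.316 for Podn, 2.884 for Aspn, 2.02 for Lum, 1.88 for Bgn and 1.673 for Ogn. The stromal clusters of the DES sections also held more muscle markers than those of the CO sections (3170.2 and 9544 against 963 and 762 CPM). Over whole sections, which are mostly other spots, muscle markers were lower in DES (3562 and 4036 against 14758 and 16169 CPM). The part of muscle cells in the differences was not tested. In the stromal cluster alone, only Prelp of these 6 genes was called. With the 20% of spots richest in stroma markers in place of the clusters, the differences were 0.81 (adjusted p = 0.133) for Prelp, 1.79 (0.367) for Podn, 0.86 (0.571) for Aspn, 0.64 (0.196) for Lum, 0.89 (0.0132) for Bgn and 0.40 (0.501) for Ogn. No group had the 4 samples that a check for a sample standing apart needs.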

How the results depend on the processing

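No paired analysis was possible because the labels tie no CO section to a DES section. No gene was highest in CO stromal cells under any of the 3 other scalings or filters, but 97 levels of a gene in a cell type moved by more than their counting interval and 239 did not. The number of genes called in whole sections was 3, 5 with DESeq2, and 0 to 6 when 1 section was left out. In the stromal cluster it was 1, 5 without a filter on low counts, 2 with the top 20% and 2 with the top 15% of spots by stroma score, and 0 to 2 when 1 section was left out. In muscle-rich spots it was 1, 0 with DESeq2 (3 at an unadjusted p under 0.05), 2 without a filter, 0 with the top 10% of spots (1 at an unadjusted p under 0.05), and 0 to 5 when 1 section was left out. In epithelium-rich spots it was 2, 3 with DESeq2 and 3 with the top 30% of spots (both adding Prelp), and 0 to 3 when 1 section was left out. For the ratio of stromal to other spots it was 6, 5 with DESeq2, 5 to 6 when 1 section was left out, and 1 with the top 20% of spots. The counts over all genes moved as well. In whole sections they were 747 of 14098, and 1756 of 14971 with DESeq2. In the stromal cluster they were 131 of 8914, and 714 of 16195 without a filter. In muscle-rich spots they were 369 of 10395, and 1100 of 16816 without a filter. In epithelium-rich spots they were 515 of 11946, and 1142 of 12863 with DESeq2. For the ratio they were 456 of 13542, and 46 of 13701 with the top 20%. The cause of these changes was not tested.

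Among the repeats of single log2 differences, 251 kept direction and side of the threshold, 28 lost a call, 24 gained one and 18 reversed. With the top 20% of spots by stroma score, the stromal differences were -0.88 for Lum, -0.84 for Ogn and -0.41 for Aspn, and with the top 15% -0.82, -0.70 and -0.29. Fmod had a difference of -0.73 in the ratio of stromal to other spots with the top 20%. Prelp was at -0.065 in the top 30% of muscle-rich spots, and Ogn at 0.12 in the top 10% of epithelium-rich spots. When 1 section was left out, whole-section differences ran from -0.75 to 0.0016 for Bgn and from -0.49 to 0.93 for Prelp, and the stromal difference of Ogn from -0.31 to 1.27. In muscle-rich spots they ran from -0.38 to 1.05 for Prelp, from -1.31 to 0.058 for Ogn and from -0.28 to 0.21 for Podn, and in epithelium-rich spots from -0.69 to 0.48 for Ogn. The values of reversed sign had no call, whereas some values at the other ends of these ranges were called, as given above. Leaving out a DES section lowered the calls among all genes as well as among the 8, to between 0 and 14 in whole sections and epithelium-rich spots.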

Other observations

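The cells without an annotated type, 20134 in the CO and 6611 in the DES library, also carried the family. Their median depth was 4137.5 UMIs in CO and 2178 UMIs in DES, below that of the annotated cells. Dcn was measured in them at 5796 CPM in CO and 3504 CPM in DES, Lum at 1064 and 502 CPM, Ogn at 413 and 259.7 CPM and Bgn at 226 and 104 CPM. Aspn was at 14.3 and 5.41 CPM, and Podn at 18.9 and 9.38 CPM. Fmod (23.2 and 30.5 CPM) and Prelp (10.4 and 12.2 CPM) were the 2 genes with the higher value in DES; in mesothelial cells Ogn and Dcn were also higher in DES. The mesothelium markers of these cells summed to 840 CPM in CO and 521 CPM in DES, and the stroma markers to 217 CPM in CO and 17.3 CPM in DES. These cells are a mixture of unknown make-up, and no test was made.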
